A study of Mus musculus with 2 samples.

Results

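Foxp3 and 4 genes of the Ikaros family (Ikzf1, Ikzf2, Ikzf3 and Ikzf4) were described in single immune cells of mouse liver. The 5 genes are 5 of the 33696 rows of each count matrix, found by symbol, and each symbol stood on 1 row (Foxp3 ENSMUSG00000039521, Ikzf1 ENSMUSG00000018654, Ikzf2 ENSMUSG00000025997, Ikzf3 ENSMUSG00000018168 and Ikzf4 ENSMUSG00000002578). The series holds 2 droplet libraries of wild-type C57BL/6J mice, 1 per group. One came from untreated mice of matched age, and the other from mice treated with ConA (concanavalin A, the jack bean lectin, a T cell mitogen) by vein at 10 mg/kg, 1 time a week for 3 weeks. In both, CD45+ cells were taken from a Ficoll gradient of the liver and sorted. The labels call the ConA schedule a model of tolerance. How many mice were pooled and their age are not given in the sources used here. Because there is 1 library per group, no test was made between groups, each difference describes these libraries, and every 95% interval covers counting error only.

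Foxp3 encodes the forkhead transcription factor that defines regulatory T (Treg) cells, which restrain other lymphocytes in the liver as in other tissues. Ikaros proteins are zinc-finger transcription factors that bind short GGGAA-like sites, pair with each other through a second set of fingers and recruit chromatin-remodelling corepressors such as NuRD. Ikzf1 (Ikaros) is active across the lymphoid lineages, Ikzf3 (Aiolos) is known in B cells and activated T cells, Ikzf2 (Helios) is widely used as a mark of Treg cells and is also made by some innate-like T cells, and Ikzf4 (Eos) is known as a partner of Foxp3.

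Promoter sequence is shown for the 2 of the 5 genes that had an entry in the RefSeq table (GRCm38.p6), to show whether the GGGAA letters that Ikaros proteins bind occur there. Ikzf2, Ikzf3 and Ikzf4 had no entry. The 150 bases before 1 start site of Foxp3 (chrX:7579526-7579675, plus strand) hold TATAAA, in capitals. The 150 bases before 1 start site of Ikzf1 (chr11:11690027-11690176, plus strand) hold TTCCC, the reverse complement of GGGAA, at 2 places, in capitals.
Foxp3: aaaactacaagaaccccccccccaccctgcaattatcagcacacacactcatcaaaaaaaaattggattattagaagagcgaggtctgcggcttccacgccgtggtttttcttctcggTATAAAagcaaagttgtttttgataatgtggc
Ikzf1: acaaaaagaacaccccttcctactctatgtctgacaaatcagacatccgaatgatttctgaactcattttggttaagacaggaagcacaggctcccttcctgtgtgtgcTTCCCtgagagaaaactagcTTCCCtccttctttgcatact
On either strand, GGGAA was found in 38.9% of the 32817 stretches of this length in the table and TATAAA in 7.58%, so the Ikzf1 match is a common one. The forkhead letters TGTTTAC (1.80% of stretches) and the Runt letters TGTGGTT (2.61%) were in neither stretch. The other listed start of each gene held none of these 4 motifs. The libraries measured transcripts, so nothing in them bears on use of these letters.

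The cells analysed numbered 15229 (untreated, median depth 2888) and 15240 (ConA, median depth 3218 unique molecular identifiers or UMIs, 1 per captured transcript). The libraries shared 82 cell barcodes. Cells were placed in exclusive gates by marker UMIs. T cells (Cd3d, Cd3e, Cd3g) were divided into CD4 T, CD8 T, gamma-delta T and other T, the last with neither Cd4 nor Cd8 transcripts captured, and NK, ILC1, B and plasmacytoid dendritic cells (pDC) had gates of their own. The CD4 T gate held 582 untreated and 1126 ConA cells. Levels are UMIs per 1000000 UMIs of the gate (CPM), a scale that is not divided by gene length, so levels are compared between gates and libraries and not between genes. Paired values give the untreated library first.

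Foxp3 transcripts were rare and lay mostly in T cells. A UMI of Foxp3 was found in 84 untreated and 93 ConA cells, with 162 and 134 UMIs in all. Of these Foxp3-positive cells, 58 (69.0%) and 63 (67.7%) were in the T gates. The CD4 T gate held 27 and 31 of them, other T cells 25 and 24, CD8 T cells 3 and 5, and T cells with both Cd4 and Cd8 transcripts 3 and 3. A further 25 and 30 Foxp3-positive cells were among the predicted doublets that had been removed. Gamma-delta T cells held 0 of 57 and 0 of 235, which at 3 counts allows a share of cells with a captured Foxp3 UMI of up to 5.26% and 1.28%, and sets no limit on cells that express the gene. When all cells were divided by clustering in place of gates, 1 cluster held 52 and 61 of the Foxp3-positive cells.

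Outside T cells Foxp3 was rare. B cells had a UMI in 4 of 3378 cells (0.118%) and in 5 of 2942 (0.170%), with median depths of 2476 and 3031. Their level was 0.466 and 0.502 CPM, where the estimated free RNA would give 0.283 and 0.241, within the counting intervals. NK cells had 1 Foxp3-positive cell in each library, ILC1 1 and 0, and pDC 3 and 0. The untreated pDC level of 1.36 CPM (0.281 to 3.99) lay above the 0.177 CPM estimated from free RNA. Cells in no gate held 10 and 12 Foxp3-positive cells at 2.51 and 2.75 CPM, with up to 3 and 2 UMIs in a cell, and no free RNA level was estimated for them. The CD4 T share was 4.64% and 2.75% (median depths 4022 and 3787), so both libraries stood above the B cell share. With each cell thinned to 1000 UMIs, the share was 2.06% (12 of 582 cells, 1.07 to 3.57) and 1.25% (14 of 1122, 0.684 to 2.08) in CD4 T cells. In B cells it was 0.0915% and 0.0693%. The thinned shares of the CD4 T cells had a log2 ratio, ConA over untreated, of -0.72 (-1.94 to 0.52). A difference in the share of positive CD4 T cells was therefore not detectable at this depth. Over all T cells, the thinned share was 1.14% (28 of 2455) and 0.512% (30 of 5855). This gave a log2 ratio of -1.15 (-1.95 to -0.36), whose interval does not include 0. The mix of T cells differed between the libraries, and its part in this ratio was not tested. CD4 T cells were 582 of 2475 untreated and 1126 of 5929 ConA T cells, and CD8 T cells 837 and 2256. Pooling all T cells was chosen after seeing the data.

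The summed Foxp3 level was lower in the ConA library. In CD4 T cells 67 and 45 UMIs gave 28.5 and 10.7 CPM, a log2 ratio of -1.42 (-1.99 to -0.85). In other T cells 55 and 37 UMIs gave 16.7 and 5.44 CPM, a log2 ratio of -1.62 (-2.26 to -0.99). Foxp3-positive CD4 T cells held a median of 2 Foxp3 UMIs (at most 9) in the untreated and 1 (at most 3) in the ConA library. Cells with 5 or more Foxp3 UMIs numbered 3 and 0. Positive cells of the ConA library thus held fewer Foxp3 UMIs each, and their median depth was lower too (4582 and 3776 UMIs). The part of depth in this was not tested.

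A difference was counted when it was past 2-fold with a constant of 5 CPM added to both levels, over genes that reached 10 CPM in 1 library and 20 UMIs in all. By this rule 1 of the 5 genes was lower in ConA CD4 T cells (Foxp3, -1.10), where 1.73% of all 8674 genes were, and 1 of 5 in other T cells (Foxp3, -1.05), where 1.7% were. Both lost that size when cells were weighted equally in place of summed (-0.74 and -0.87), and the other T value also without doublet removal (-0.96), with a stricter gate (-0.94) and with clusters in place of gates (-0.71).

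**Figure D1:**
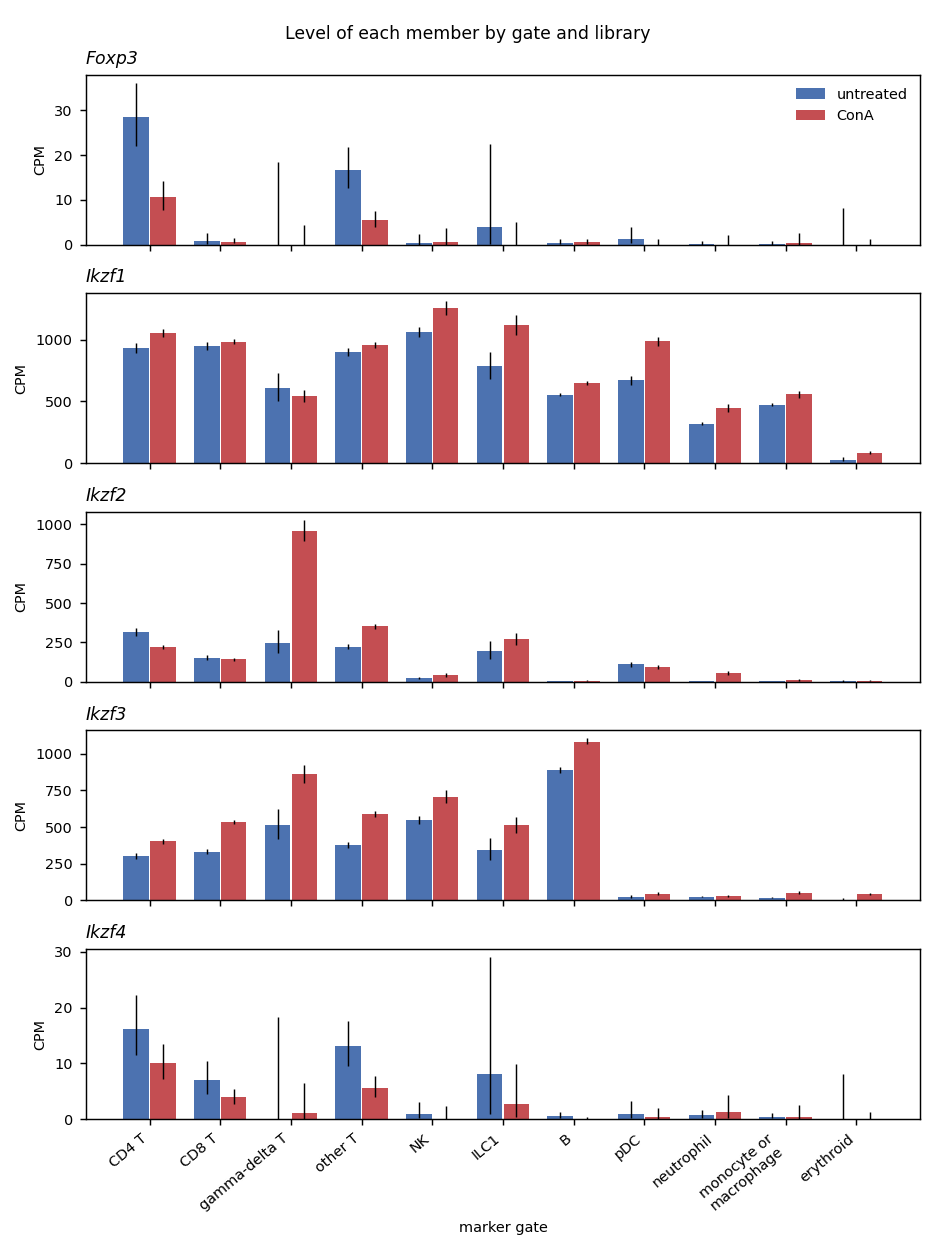
Level of each gene (vertical axis, CPM of the gate, linear from 0 and different for each gene) in 11 marker gates of the untreated (blue) and ConA (red) library. Bars are summed UMIs of 1 library and lines are exact 95% Poisson intervals. Foxp3 and Ikzf4 are highest in CD4 T and other T cells, and Ikzf4 is also seen in CD8 T cells. Ikzf1 fills all lymphoid gates, Ikzf3 is highest in B cells, and Ikzf2 reaches 961 CPM in ConA gamma-delta T cells.

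Ikzf1 was present in every lymphoid gate. Its level ran from 555 CPM in B cells to 1063 in NK cells of the untreated library, and from 544 CPM in gamma-delta T to 1252 in NK cells of the ConA library. CD4 T cells had 932 and 1054 CPM (2191 and 4441 UMIs), a log2 ratio of 0.18 (0.10 to 0.25), and CD8 T cells 947 and 984 CPM, a log2 ratio of 0.06 (-0.00 to 0.11). At least 1 UMI was found in 91.6% and 90.8% of CD4 T cells. The largest ratios of Ikzf1 among these 8 gates were in pDC (670 and 987 CPM, 0.56, 0.47 to 0.65) and ILC1 (784 and 1116 CPM, 0.51, 0.28 to 0.74). Neither reached 2-fold, and the ILC1 value was 0.13 with clusters in place of gates.

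Ikzf3 was highest in B cells and low in pDC. B cells had 888 and 1082 CPM (7623 and 10778 UMIs), a log2 ratio of 0.28 (0.24 to 0.33). In pDC the level was 26.4 and 46.8 CPM, and subtraction of the estimated free RNA turned the pDC ratio from 0.72 to -0.08 (both with the constant). In each of the 4 T gates the ConA library was the higher one. CD4 T cells had 303 and 402 CPM (log2 ratio 0.41, 0.28 to 0.54) and CD8 T cells 333 and 532 CPM (0.68, 0.58 to 0.77). Gamma-delta T cells had 513 and 860 CPM (0.74, 0.45 to 1.06) and other T cells 378 and 589 CPM (0.64, 0.55 to 0.73). None of these was past 2-fold. ILC1 (346 and 512 CPM) lay within the range of the T gates in both libraries. NK cells (547 and 707 CPM) lay above all 4 T gates in the untreated library and within their range in the ConA library.

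Ikzf2 had a narrower range of cells. CD4 T cells held 316 and 221 CPM (743 and 930 UMIs), a log2 ratio of -0.52 (-0.66 to -0.38), while the share of CD4 T cells with a UMI was 18.6% and 24.8%. The level and the share therefore moved in opposite directions, and the most UMIs in 1 cell were 49 and 29. CD8 T cells had 154 and 143 CPM and other T cells 223 and 353 CPM. Among innate cells, ILC1 had 197 and 272 CPM and NK cells 26.1 and 42.9 CPM, so ILC1 stood above NK cells in both libraries. The ILC1 ratio between libraries had no stable sign, at 0.46 by gates and -0.70 by clusters. pDC had 111 and 92.5 CPM, and B cells 5.59 and 8.33 CPM. The estimated free RNA would give 5.72 and 13.3 CPM in B cells, so their level did not stand above it in either library. In NK cells it would give 5.96 and 19.5 CPM, which leaves 20.1 and 23.4 CPM.

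Gamma-delta T cells showed the largest difference of Ikzf2 in the lymphoid gates. The level was 249 CPM (185 to 329, 50 UMIs in 57 cells) in the untreated and 961 CPM (896 to 1029, 821 UMIs in 235 cells) with ConA. This gave a log2 ratio of 1.95 (1.53 to 2.39). A UMI was found in 43.9% and 79.1% of the cells, and in 26.3% and 52.6% after thinning. It was 1 of 3 genes with enough UMIs in that gate and the only one past 2-fold, where 10.4% of all 6920 genes were higher in ConA. With predicted doublets kept, the ratio with the constant fell from 1.93 to 1.003. Markers of other innate lymphocytes differed in the same gate, and not all in 1 direction. Ncr1 and Klrb1c, the pair that marks the NK and ILC1 gates, had 563 and 154 CPM together. The 6 markers of the NK side had 135 and 88.9 CPM, and the 5 of the ILC1 side (Itga1, Cd200r1, Tnfsf10, Cxcr6 and Il7r) 1226 and 1616 CPM. Their part in the result was not tested.

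No gene with enough UMIs passed 2-fold in the CD8 T, NK, ILC1, B or pDC gate, where 2.6%, 3.49%, 8.45%, 4.23% and 3.65% of all genes did in either direction. Over the 8 lymphoid gates 27 pairs of gene and gate had enough UMIs and 3 were past 2-fold. In the neutrophil gate Ikzf2 was 6.15 and 54.3 CPM, with 90 ConA UMIs in 38 cells, and 6.68% of genes were higher there. Basophil and mast cell markers in that gate were 2.38 and 205 CPM, and T cell markers 39.96 and 70.6 CPM. Their part in the neutrophil value was not tested. In the monocyte and macrophage gate Ikzf3 was 19.3 and 53.9 CPM (195 and 119 UMIs), past 2-fold higher with ConA, where 3.18% of genes were. T cell markers in that gate were 21.9 and 39.8 CPM and B cell markers 58.4 and 67.9 CPM, and their part was not tested either.

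**Figure D2:**
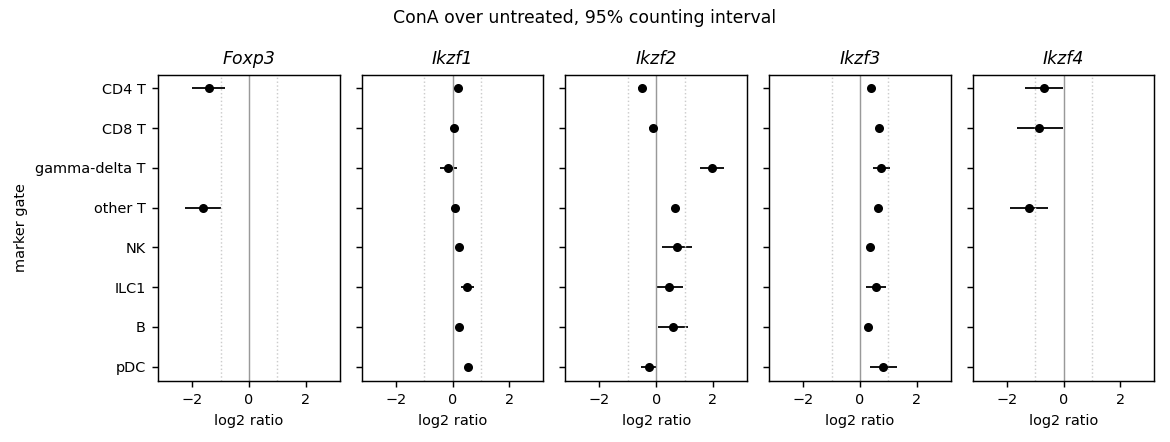
Log2 ratio of CPM, ConA over untreated (horizontal axis), for each gene in 8 lymphoid gates (vertical axis). Points are 1 library over 1 library, lines are exact 95% counting intervals, dotted lines mark 2-fold, and pairs under 20 UMIs are left out. Foxp3 lies left of 0 in CD4 T and other T cells, Ikzf3 right of 0 in all 8 gates, and Ikzf2 stands at 1.95 in gamma-delta T cells.

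Like Foxp3, Ikzf4 was highest in CD4 T and other T cells among the 8 lymphoid gates. CD4 T cells had 16.2 and 9.97 CPM (38 and 42 UMIs), a log2 ratio of -0.70 (-1.37 to -0.02), and other T cells 13.1 and 5.59 CPM, a log2 ratio of -1.22 (-1.89 to -0.56). CD8 T cells had 6.995 and 3.88 CPM (24 and 34 UMIs). Foxp3 had 0.874 and 0.685 CPM there (3 and 6 UMIs), so Ikzf4 was less confined to the CD4 T and other T gates. In NK cells, ILC1, gamma-delta T cells, B cells and pDC no gate held more than 4 UMIs in either library. With the constant the CD4 T and other T ratios were -0.50 and -0.77, so neither passed 2-fold.

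Co-detection within cells was then taken in the CD4 T gate, where a Foxp3-positive cell had at least 1 Foxp3 UMI. The 27 untreated and 31 ConA Foxp3-positive cells were of median depth 4582 and 3776 UMIs, compared with 3994 and 3787 for the 555 and 1095 Foxp3-negative cells. Ikzf2 was the most unequal of the family in the untreated library. It stood at 3336 CPM in Foxp3-positive and 134 CPM in Foxp3-negative cells of the untreated library, a log2 ratio of 4.64 (4.43 to 4.86). With ConA the levels were 1835 and 177 CPM, for a log2 ratio of 3.38 (3.15 to 3.60). A Foxp3-positive cell held a median of 13 Ikzf2 UMIs in the untreated library and 3 in the ConA library.

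Shares of cells followed the same order. Ikzf2 was found in 26 of 27 Foxp3-positive cells (96.3%) and in 14.8% of Foxp3-negative cells of the untreated library. In the ConA library it was found in 23 of 31 (74.2%) and in 23.4%. At 1000 UMIs per cell the shares were 85.2% (66.3 to 95.8) and 6.67% (4.74 to 9.07) in the untreated, and 64.5% (45.4 to 80.8) and 12.2% (10.3 to 14.3) in the ConA library. The Foxp3-positive cells of the 2 libraries overlap in these intervals, while in each library the positive and negative cells do not.

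Ikzf4 was also higher in Foxp3-positive cells, from few UMIs. It had 67.2 and 13.1 CPM in positive and negative untreated cells (9 and 29 UMIs), a log2 ratio of 2.36 (1.10 to 3.48), and 62.7 and 8.54 CPM in ConA cells (7 and 35 UMIs), a log2 ratio of 2.88 (1.46 to 4.07). The ConA ratio of Ikzf2 lies inside that last interval, and over all T cells of the ConA library the ratio was 3.45 (2.45 to 4.31) for Ikzf4 and 2.91 (2.76 to 3.06) for Ikzf2. Which of the 2 genes was the more unequal in the ConA library was therefore not detectable. Ikzf3 was higher by less, with 560 and 287 CPM in untreated cells (0.96, 0.60 to 1.31) and 609 and 396 CPM in ConA cells (0.62, 0.25 to 0.97). After thinning the intervals of the Ikzf3 ratio included 0 in both libraries (0.86, -0.05 to 1.64, and 0.34, -0.51 to 1.08). The thinned Ikzf4 ratio was 2.78 (0.25 to 4.78) in the untreated library, with a UMI in 2 of 27 positive cells. In the ConA library it was 1.55 (-3.87 to 4.31), with a UMI in 1 of 31, so that interval included 0.

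Ikzf1 went the other way. Foxp3-positive cells had 418 CPM and Foxp3-negative cells 963 CPM in the untreated library, a log2 ratio of -1.20 (-1.61 to -0.82). With ConA the levels were 618 and 1066 CPM, for a log2 ratio of -0.79 (-1.15 to -0.44). At 1000 UMIs per cell an Ikzf1 UMI was found in 25.9% of Foxp3-positive and 62.0% of Foxp3-negative untreated cells, and in 38.7% and 62.7% of ConA cells.

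By the 2-fold rule, on unthinned UMIs, Ikzf2 and Ikzf4 were higher in Foxp3-positive cells of both libraries. Of all genes, 7.83% (untreated) and 8.21% (ConA) were. In the ConA library Ikzf4 reached the floor of 10 CPM only in the positive cells (62.7 and 8.54 CPM in positive and negative cells). Ikzf1 was lower in the untreated library (-1.19 with the constant), where 13.4% of genes were, and short of 2-fold in the ConA library (-0.78), where 11.7% were.

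**Figure D3:**
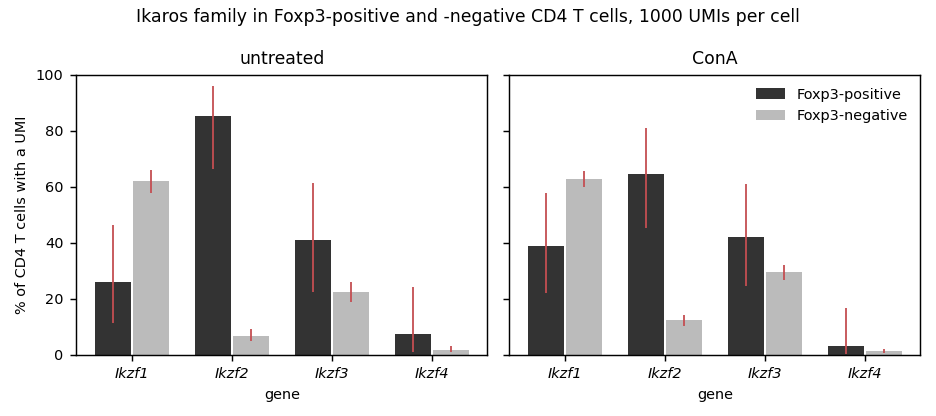
Share of CD4 T cells with a UMI of each Ikaros family gene (vertical axis, percent, cells thinned to 1000 UMIs) among Foxp3-positive (dark) and Foxp3-negative (light) cells of each library, with exact 95% binomial intervals in red. Ikzf2 is found in 85.2% and 64.5% of Foxp3-positive cells, and Ikzf1 in fewer Foxp3-positive than Foxp3-negative cells of both libraries.

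Read from the Ikzf2 side, Foxp3 was concentrated in cells with many Ikzf2 UMIs. Among untreated CD4 T cells with 5 or more Ikzf2 UMIs, 24 of 38 (63.2%, 46.0 to 78.2) were Foxp3-positive. Among those with no Ikzf2 UMI, 1 of 474 was (0.211%). In the ConA library the shares were 14 of 54 (25.9%, 14.96 to 39.7) and 8 of 847 (0.945%). The cells with 5 or more Ikzf2 UMIs were of median depth 4726 and 4380 UMIs, compared with 3956 and 3759 for those with none.

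Over all T cells the untreated share was again the higher one, at lower shares in both libraries. Of T cells with 5 or more Ikzf2 UMIs, 39 of 120 (32.5%) were Foxp3-positive in the untreated and 29 of 389 (7.46%) in the ConA library. Of these 389 ConA cells, 68 were gamma-delta T cells, none of them with Foxp3. Of the Foxp3-positive CD4 T cells, 0 of 27 untreated and 7 of 31 ConA cells had neither Ikzf2 nor Ikzf4. Over all T cells 5 of 58 and 15 of 63 had neither. These counts are of unthinned UMIs, and the ConA positive cells had the lower median depth (4582 and 3776 in CD4 T, 4362.5 and 3274 in all T). The part of depth was not tested.

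**Figure D4:**
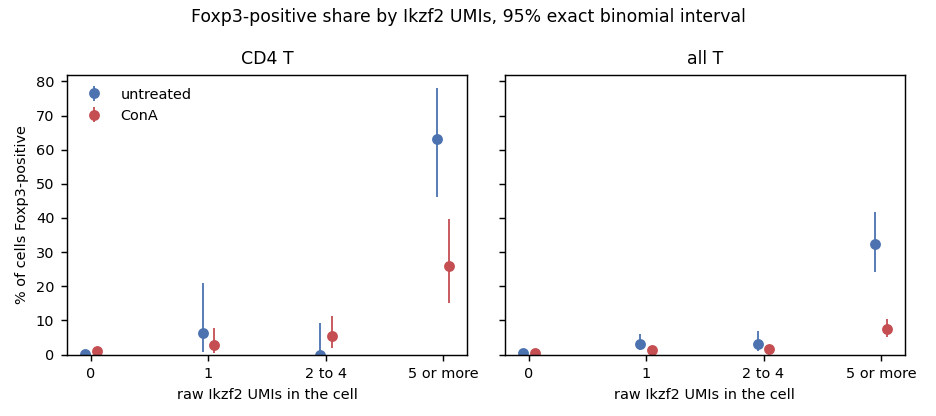
Share of cells with a Foxp3 UMI (vertical axis, percent) by the number of raw Ikzf2 UMIs in the cell (horizontal axis), in CD4 T cells (left) and all T cells (right) of the untreated (blue) and ConA (red) library, with exact 95% binomial intervals. At 5 or more Ikzf2 UMIs the untreated shares are 63.2% and 32.5% and the ConA shares 25.9% and 7.46%.

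The CD4 T gate had a different make-up in the libraries, which stands beside each ratio above. Cells with at least 2 UMIs of Ccl5 and Nkg7 together, a chemokine and a granule protein of effector lymphocytes, are called effector-marked here. They were 29.4% of untreated and 55.5% of ConA CD4 T cells. The CD4 T cells outside that class had the order of the whole gate for Foxp3, with 66 UMIs in 411 untreated cells and 21 in 501 ConA cells (42.8 and 11.4 CPM, log2 ratio -1.90, -2.69 to -1.18). Effector-marked CD4 T cells had the opposite order, with 1 UMI in 171 untreated cells and 24 UMIs in 625 ConA cells. With that single untreated UMI the log2 ratio was 3.03 (0.42 to 8.39). In the other T gate Foxp3 was lower with ConA both in effector-marked cells (9.44 and 2.81 CPM, -1.75, -2.84 to -0.69) and outside them (29.7 and 12.6 CPM, -1.24, -2.06 to -0.44).

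Ikzf2 also had opposite orders inside and outside the effector-marked class of CD4 T cells. Outside it the level was 387 and 172 CPM (log2 ratio -1.17, -1.37 to -0.97), the order of the whole gate. In effector-marked cells it was 181 and 259 CPM (0.51, 0.25 to 0.78). In these cells Ikzf1 stood at 723 and 987 CPM (0.45, 0.32 to 0.58) and Ikzf3 at 397 and 483 CPM (0.28, 0.10 to 0.46). Both were in the direction of the whole gate. Effector-marked cells were 68.2% and 88.1% of CD8 T cells. There Ikzf3 had 349 and 542 CPM (0.63, 0.53 to 0.74) and Ikzf2 178 and 132 CPM (-0.42, -0.58 to -0.26). Ikzf2 was thus higher in the ConA library in effector-marked CD4 T cells and lower in effector-marked CD8 T cells. In CD8 T cells outside the class it was higher in the ConA library (89.2 and 229 CPM, 1.36, 0.98 to 1.75). The part of this make-up in the ratios of the whole gates was not tested.

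Other genes of Foxp3-positive CD4 T cells were read against the same background shares. A list of 24 Treg effector and surface genes, several of them known targets of Foxp3, was read by the 2-fold rule. Of its members with enough UMIs, 14 of 18 were higher in the untreated and 18 of 21 in the ConA library. None was past 2-fold lower in this gate. The median log2 ratio of the list with the constant was 2.37 and 2.02, against -0.02 and 0.04 over all genes. The floor of 10 CPM can be met in the positive cells alone, so these counts and medians are a description. Among the members called higher, Tnfrsf4, Itgae, Il1rl1 and Klrg1 were below 10 CPM in negative untreated cells. Itgae, Klrg1, Il10, Areg and Tigit were so in negative ConA cells. Ctla4, the inhibitory receptor that takes costimulatory ligands away, stood at 597 and 83.9 CPM in positive and negative untreated cells and 1074 and 142 CPM in ConA cells (log2 ratios with the constant 2.76 and 2.87). Il2ra, the high-affinity chain of the interleukin 2 receptor, stood at 269 and 54.1 CPM, and 188 and 42.7 CPM (2.21 and 2.02). Gzmb, the protease granzyme B, had ratios of opposite sign in the libraries (-0.18 and 1.81), at 149 and 376 CPM in positive cells. Il2rb, another chain of the interleukin 2 receptor, was lower in positive cells of both libraries by less than 2-fold (-0.80 and -0.30). Over all T cells Gzmb had -1.70 and 0.29 and Il2rb -1.06 and -0.11, so both were past 2-fold lower in the untreated library.

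Ranked by the smaller of the 2 libraries' ratios among genes with at least 50 CPM in the Foxp3-positive cells of both, the 15 highest were Frmd5, Tnfrsf4, Ikzf2, Itgae, Lamc1, Neb, Ccr6, Cd80, Tnfrsf9, Klrg1, Ctla4, Nav2, Nrp1, Dst and Il1rl1. The floor of 50 CPM applies to the cells where these genes are high, so the ranking is a description and no count is drawn from it. Tnfrsf4, the costimulatory receptor OX40, had log2 ratios of 3.61 and 3.64. Itgae, the integrin chain CD103 that holds cells in epithelia, had 4.37 and 3.23, Klrg1, a receptor of differentiated effector lymphocytes, 4.64 and 2.80, and Il1rl1, the interleukin 33 receptor, 3.86 and 2.42. Most of them rest on few UMIs. Itgae had 27 and 8 UMIs in positive cells, Ccr6, a chemokine receptor, 9 and 6, and Cd80, a costimulatory ligand, 10 and 7. Ccr6 in both libraries and Cd80 in the untreated library fell short of the 20 UMIs that the 2-fold rule asks for.

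The 10 lowest by the mirror rule were Atp8b4, Zbtb16, Il12rb2, Slamf7, Auts2, Dapl1, Hs3st3b1, Pde3b, St8sia1 and Pde7a. Zbtb16, the factor of innate-like T cells, had 0 and 1 UMIs in Foxp3-positive cells and 271 and 817 in Foxp3-negative cells. Il12rb2, a chain of the interleukin 12 receptor of Th1 cells, had 0 and 0 UMIs against 145 and 351. Over all T cells it had 0 and 10 UMIs in Foxp3-positive cells. The log2 ratios with the constant were then -4.16 and -0.86, short of 2-fold in the ConA library. Slamf7 had 3 and 9 UMIs in the positive cells of all T gates, with ratios of -2.47 and -1.03. Pde3b, which breaks down cyclic AMP and is known as a gene repressed by Foxp3, had 67.2 and 508 CPM in positive and negative untreated cells and 71.6 and 702 CPM in ConA cells (-2.83 and -3.21).

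Of 25 regulators and partners of Foxp3, 0 were higher and 3 lower in positive untreated cells, and 1 was higher and 2 lower in ConA cells. Over all genes 7.83% were higher and 13.4% lower in the untreated library, and 8.21% and 11.7% in the ConA library, so these counts are near or below the background and are no result about the list. The members past 2-fold are given as values. Satb1, a chromatin organiser, had log2 ratios of -2.52 and -1.22, Bach2, a repressor of effector programmes, -1.34 and -1.21, and Foxp1, a forkhead relative, -1.15 and -0.31. Stat5a, which carries interleukin 2 signals, was the higher one in ConA cells (1.19, and 0.38 in untreated cells). Of 17 corepressor partners of Ikaros proteins with enough UMIs, none passed 2-fold in either library, with medians of 0.14 and 0.08. Chd4, the NuRD helicase, had 343 and 298 CPM in positive and negative untreated cells and 304 and 288 CPM in ConA cells. None of Ikzf5, Crbn, Ddb1 and Cul4a, the first a relative in the family and the others parts of a ubiquitin ligase that drugs direct at Ikaros proteins, passed 2-fold. Tcf7, a factor of naive and memory T cells, was lower in Foxp3-positive cells of both libraries (-3.39 and -1.43), as was Il7r, the interleukin 7 receptor (-1.25 and -1.31).

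**Figure D5:**
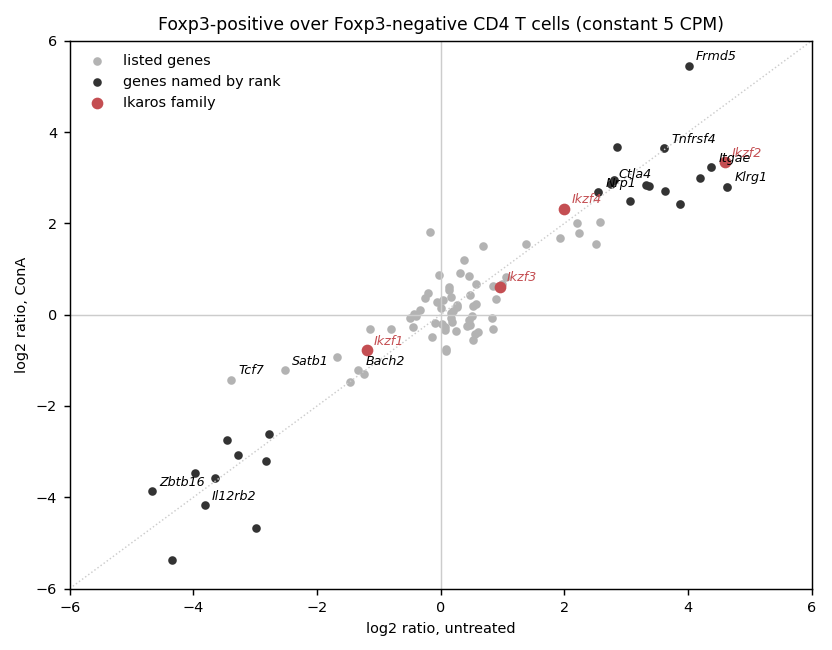
Log2 ratio of Foxp3-positive over Foxp3-negative CD4 T cells, with a constant of 5 CPM, in the untreated (horizontal axis) and ConA (vertical axis) library. Red points are the 4 Ikaros family genes, black points the 25 genes named by rank and grey points the other listed genes with enough UMIs; the dotted line marks equal ratios. Ikzf2 stands at 4.59 and 3.34, and Ikzf1 at -1.19 and -0.78, on the side of Bach2 and Satb1.

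Between the libraries, 3 of the lists were read in CD4 T cells as a whole, where 2.73% of all genes passed 2-fold in either direction. Of 19 Treg effector and surface genes with enough UMIs, 1 was higher and 1 lower in ConA. That share is above the share of all genes, but with 1 gene in each direction it is no result about the list. Of 25 regulators and 17 corepressor partners none passed 2-fold. The medians of these 3 lists lay between -0.04 and 0.14, against 0.07 over all genes. Tcf7 and Il7r, which belong to none of them, were lower in the ConA gate by less than 2-fold, at 637 and 459 CPM (log2 ratio -0.47, -0.57 to -0.38) and 520 and 466 CPM (-0.16, -0.26 to -0.05).

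Across the 11 gates of both libraries (22 points that share libraries and, within a library, depth) the genes most like each member among 9136 were taken by Pearson correlation of log2 CPM plus 5, as a description. Foxp3 was most like Ly6c1 (r = 0.96), Pdlim4, Lhfpl3, Lrig1 and Igfbp4, all highest in untreated CD4 T cells. Ikzf4 was most like Igfbp4 (0.89) and Foxp3 (0.88), then Trat1, Igflr1 and Izumo1r. Ikzf2 was most like Il7r (0.94), Sytl1, Cxcr3, Sntb1 and Prrt1, Ikzf3 most like Lax1 (0.97), Dock9, Cers4, Cd2 and Cbx7, and Ikzf1 most like Sart1 (0.98), Septin7, Ogdh, Araf and Pcnp. Over these gates Foxp3 and Ikzf2 had r = 0.45, although they met in the same cells of the CD4 T gate. Il7r is among the markers that divide ILC1 from NK cells here, so its level in the NK and ILC1 gates is partly set by the gating.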

How the data were processed

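The authors deposited raw counts of UMIs for every gene in every barcode. Per the file headers the software had version 8.0.1, whereas per the submitters' processing notes it was Cell Ranger 6.0.1, with Seurat 4.3.0. The notes give mm39 as the build, which is not that of the RefSeq table. No source used here says whether intronic reads were counted. Barcodes needed 500 UMIs, 300 genes and a mitochondrial share of no more than 10% (17632 untreated and 17767 ConA passed). Doublets were scored against simulated ones by nearest neighbours and the top cells removed, with an expected rate of 0.8% for each 1000 barcodes corrected for pairs within a cluster (2403 cells, 13.6%, and 2527, 14.2%).

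Gates needed at least 2 UMIs of the T markers, at least 2 of Ncr1 and Klrb1c with no Cd3d or Cd3e (NK and ILC1, divided by further markers), or at least 3 of the markers of B cells, pDC, neutrophils, monocytes or macrophages, and erythroid cells. Cells in more than 1 gate (1352 and 913) or in none (2402 and 2460) were left out. Ccr2 was taken out of the monocyte gate after it was seen to remove T cells. Intervals are exact, conditional Poisson for ratios of counts and Clopper-Pearson for shares. Ratios, calls and thinning were tried on simulated Poisson counts. Those counts hold no clustering of UMIs in cells, so they cannot show how the intervals hold where UMIs cluster. Alternatives were other doublet, mitochondrial, gate, clustering, weighting, thinning and constant settings. The estimated free RNA share of a gate's UMIs was 5.92% to 14.3%.

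The 5 genes, the lists and the rule for named genes (ranked ratios in Foxp3-positive cells, and the 5 genes of highest correlation with each member) were chosen with earlier results of these data known. Results that need certain marker genes are not reported here. Scripts used Python 3.11.15, numpy 2.4.6, scipy 1.17.1, pandas 2.3.3 and leidenalg 0.10.2.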

Additional observations from a re-analysis of the deposited data

Results flagged for a closer look

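Cells that carried the markers of more than 1 gate entered no comparison. In the ConA library 11 of these 913 cells (1.20%) had a Foxp3 UMI, and in the untreated library 4 of 1352 (0.296%), at median depths of 4308 and 5562 UMIs. The ConA share lies above the 0.329%, and the untreated share above the 0.222%, that a count of 0 would allow, as any count above 3 does. T cell markers were carried by 681 of the ConA and 373 of the untreated cells, so the 2 sets differ in T cell content. At 1000 UMIs per cell 1 cell in each library kept a Foxp3 UMI (0.110% and 0.0744%), and no difference between the libraries was detectable at that depth.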

How the results depend on the processing

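Depth limits Foxp3 and Ikzf4 most, with 45 and 42 UMIs in the ConA CD4 T gate, and 1 library per group allows no replicate check. No paired analysis was possible because each group holds 1 library and no result comes from a test. The log2 ratio of the Foxp3-positive share of CD4 T cells ran from -0.34 at 1500 UMIs per cell to -1.95 with at least 2 Foxp3 UMIs. The number of pairs past 2-fold was 3 and became 1 with cells weighted equally. For Foxp3-positive over Foxp3-negative cells, the use of all T cells gave Ikzf2 3.98 (untreated) and 2.91 (ConA) and Ikzf3 0.56 and 0.16. For Ikzf2 in the ConA library, keeping predicted doublets gave 2.80 and counting Ccr2 in the monocyte gate 3.69. The cause of these moves was not tested. The other 83 values of these comparisons moved by less than their intervals or, for the number of pairs, lay between 2 and 4. Of 243 alternative ratios of single genes, 240 kept their sign. The all T, Ccr2 and unthinned settings were chosen after seeing the data.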
